A study of Homo sapiens with 14 samples.

Results

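Human embryonic stem cells that were being induced toward neural crest with a high dose of CHIR99021 were compared between cultures given TGF-beta 1 and cultures given SB431542. TGF-beta 1 is the ligand of the pathway and SB431542 blocks its type I receptors, so the comparison spans the pathway from added ligand to blocked receptor. The members were the libraries whose labels give high Wnt with either agent, 4 of the 14 libraries of the study. The 2 libraries called high Wnt + SB4 and the 2 called high Wnt + TGFB came from WA01, the stem cell line also known as H1. All 4 received 10 µM CHIR99021, which inhibits GSK3 and so turns on canonical Wnt signaling, from hour 0 to hour 72. The agents were present from hour 0 to hour 120, SB431542 at 10 µM and recombinant human TGF-beta 1 at 5 ng/µL, the unit in which the labels state the dose. Cells grew on Matrigel in DMEM/F12 with B27 supplement and bovine serum albumin in all groups. RNA was taken from 500000 cells after day 5 and polyadenylated RNA was sequenced. Set beside them were 2 high Wnt libraries with CHIR99021 and neither agent, and the 4 libraries given the same agents with 3 µM CHIR99021 (low Wnt + SB4 and low Wnt + TGFB). The other 4 libraries of the study entered the fit only, to estimate the spread. As a model, the study used 1 cell line and 1 end point. Whether replicate libraries came from separate cultures is not stated, so p-values measure the spread between libraries, which may be technical.

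TGF-beta, activin and nodal bind pairs of type II and type I receptor kinases, and the type I kinases TGFBR1, ACVR1B and ACVR1C phosphorylate SMAD2 and SMAD3, which enter the nucleus with SMAD4. SB431542 blocks those type I kinases and largely spares the ones that serve BMP. The SMADs switch on inhibitors of the pathway itself, among them SMAD7, SKIL, PMEPA1 and the secreted LEFTY proteins, together with matrix and contractile genes. In the early embryo the nodal branch promotes mesoderm and endoderm, and its blockade favors neural tissue.

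Counts per library ran from 10879287 to 17424753 in the 6 high Wnt libraries, and levels are given as CPM, the count scaled to a fixed library size with TMM factors. Replicates correlated at 0.989 to 0.991 in log2 CPM across genes, and the first principal component of the 6 libraries, with 52.1% of the variance, placed the SB431542 libraries at 49.1 and 50 and the TGF-beta 1 libraries at -41.3 and -34.5. The libraries with neither agent lay between, at -13.8 and -9.4. The neural crest label was checked against 18 crest specifier genes. PAX3, MSX1 and ZIC1 of this list, and SNAI2 of the mesenchymal list, were present in all 6 libraries. The defining crest gene SOX10 did not exceed 1.66 CPM in any of these libraries, and TFAP2A did not exceed 0.279 CPM. A count of 0 allows up to 3 counts, which is 0.167 to 0.269 CPM in these libraries. FOXD3 was at or under 0.797 CPM. The cells are therefore called by their culture conditions here.

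Of 16149 genes tested, 3910 differed between TGF-beta 1 and SB431542 at an adjusted p under 0.05 in edgeR, which is 24.2% of those tested. With TGF-beta 1, 2099 genes were higher (13%) and 1811 were lower (11.2%), and the median log2 fold change over all genes was -0.00425. A log2 fold change of at least 1 was reached by 992 of the higher and 459 of the lower genes. Leaving out 1 of the 4 libraries lowered the count to between 2477 and 2686, the lowest without high Wnt + TGFB replicate 1. The libraries of the 2 groups did not overlap at 61.6% of the genes tested (TGF-beta 1 higher at 30.5% and lower at 31.1%), so a lack of overlap at a single gene says little here. The plot of all genes tested shows the named genes at both ends, which are described below by role. The shares over all genes, 13% higher and 11.2% lower, belong beside each count of list members between the agents at this dose.

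**Figure D1:**
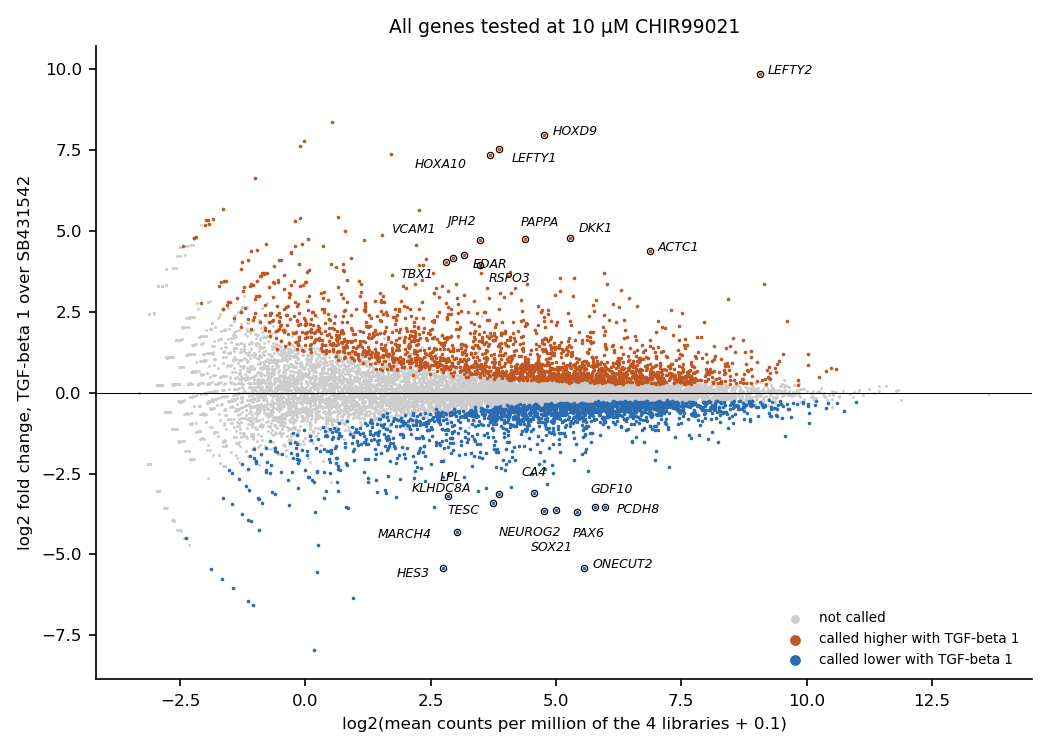
Each point is 1 of the 16149 genes tested, with the log2 of its mean CPM in the 4 libraries on the x axis and the log2 fold change of TGF-beta 1 over SB431542 at 10 µM CHIR99021 on the y axis. Orange and blue points were called higher and lower, and the 12 largest and 12 smallest changes among well-expressed called genes are circled and named, from LEFTY2 at 9.84 to HES3 at -5.43.

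The feedback inhibitors of SMAD2 and SMAD3 moved together, with 9 of 15 tested higher with TGF-beta 1 (13% of all genes were) and none lower, and a median log2 fold change of 1.39. LEFTY2, a secreted inhibitor of nodal and activin signaling, had the largest change of all named genes. Its level was 1.52 and 0.836 CPM with SB431542, 184 and 134 with neither agent, and 1020.2 and 1123 with TGF-beta 1. All 3 groups stood apart, and the log2 fold change of TGF-beta 1 over SB431542 was 9.84 ± 0.26 (SE, adjusted p = 2.84e-13 in edgeR). LEFTY1, its neighbor on chromosome 1, measured 0.127 and 0.167 CPM with SB431542, 7.73 and 6.600 with neither agent, and 25.2 and 32.4 with TGF-beta 1 (7.53 ± 0.41). The pair is nearly identical in sequence and reads that map to both were not counted, so the split between them is uncertain. PMEPA1, which holds SMAD2 and SMAD3 away from the receptor, was at 0.191 and 0.167 CPM with SB431542, 2.82 and 3.03 with neither agent, and 7.79 and 10.7 with TGF-beta 1 (5.65 ± 0.39).

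FST encodes follistatin, which traps activin, and measured 106 and 134 CPM with TGF-beta 1, 41.6 and 44.3 with neither agent, and 27.2 and 25.7 with SB431542 (2.19 ± 0.12). Here the SB431542 and no-agent libraries lay closer together and TGF-beta 1 stood above both. SMAD7, the inhibitory SMAD, reached 23.02 and 18.1 CPM with TGF-beta 1, 20.2 and 14.1 with neither agent, and 7.56 and 5.85 with SB431542 (1.61 ± 0.28, adjusted p = 0.000347). SKIL, a repressor that binds SMADs, measured 174 and 181 CPM with TGF-beta 1, 148 and 169.6 with neither agent, and 61.6 and 73.7 with SB431542 (1.39 ± 0.19). For SMAD7 and SKIL the TGF-beta 1 libraries were close to those with neither agent and only SB431542 stood apart: TGF-beta 1 against neither agent gave log2 fold changes of 0.26 and 0.16, which did not pass. The other called inhibitors were BAMBI, LDLRAD4 and SMURF2 (1.49, 1.83 and 0.44). SKI, TGIF1, TGIF2, FSTL3, SMURF1 and CER1 did not pass. LDLRAD4 lost its call without high Wnt + SB4 replicate 1 (adjusted p = 0.1) or high Wnt + TGFB replicate 2 (adjusted p = 0.166). SMURF2 lost its call without high Wnt + SB4 replicate 1 (adjusted p = 0.161) or high Wnt + TGFB replicate 1 (adjusted p = 0.0996).

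**Figure D2:**
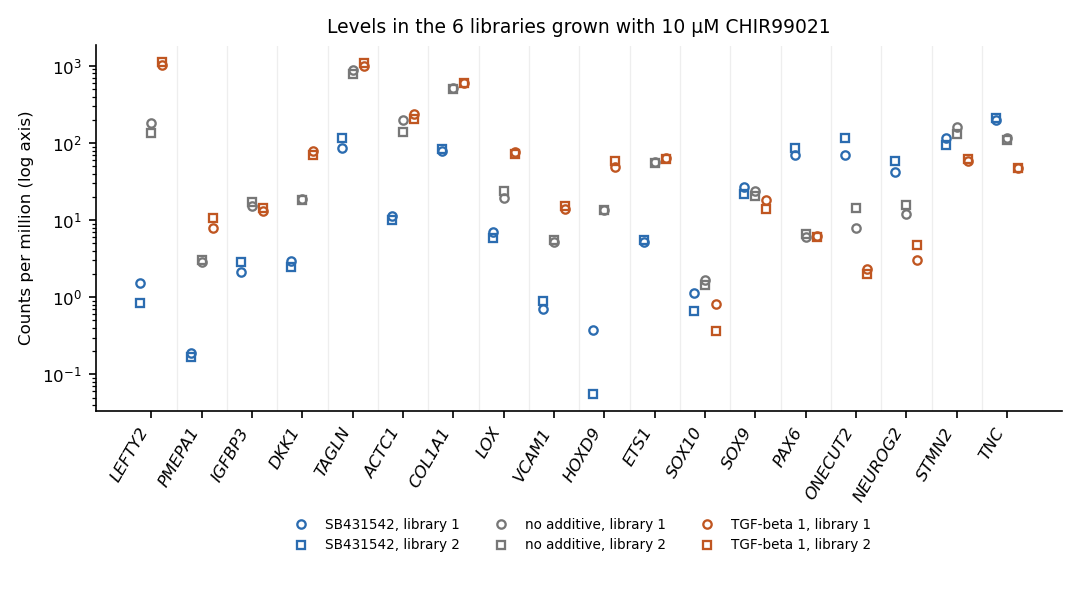
CPM on a log axis for 18 genes in the 6 libraries grown with 10 µM CHIR99021, with circles for library 1 and squares for library 2 of each group. LEFTY2 runs from 0.836 CPM with SB431542 to 1123 CPM with TGF-beta 1, whereas PAX6, ONECUT2, NEUROG2 and TNC are highest with SB431542 and SOX10 is low in all 6 libraries.

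Promoter sequence was looked up because SMAD complexes bind a known short motif. The genes were the 5 called feedback and target genes with the smallest p, LEFTY2, LEFTY1, FST, PMEPA1 and IGFBP3. RefSeq windows on GRCh38.p14 were matched for 3 of the 5, and the 250 bases before the start of each are shown. The first listed of 4 PMEPA1 starts was used. The SMAD box CAGAC (either strand) was in none of the 3 windows, and neither was its palindrome GTCTAGAC. Of 27303 promoter windows of this length, 37.8% hold the box and 0.176% the palindrome. Of 19 called target and feedback genes 13 had a window, and 6 of these held the box and 0 the palindrome. The 4-base core of the box, AGAC on either strand, was searched after that result was seen and is in capitals. It was found in 77.6% of all windows, and at 3 places in FST, 2 in PMEPA1 and 2 in IGFBP3. These are matches of letters, not measured binding sites. The windows lie at chr5:53480379-53480628 (plus strand) for FST, chr20:57711473-57711722 (minus strand) for PMEPA1 and chr7:45921273-45921522 (minus strand) for IGFBP3, each printed 5′ to 3′ toward the start. RefSeq places the start of FST 195 bases, and that of PMEPA1 64 bases, inside the gene span of the deposited count table, so part of each of these windows lies within the counted gene.
FST: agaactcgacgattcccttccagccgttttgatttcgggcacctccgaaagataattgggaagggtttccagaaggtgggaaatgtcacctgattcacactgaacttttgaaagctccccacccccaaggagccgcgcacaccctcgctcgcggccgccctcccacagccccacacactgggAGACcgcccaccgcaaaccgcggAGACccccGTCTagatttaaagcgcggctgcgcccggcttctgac
PMEPA1: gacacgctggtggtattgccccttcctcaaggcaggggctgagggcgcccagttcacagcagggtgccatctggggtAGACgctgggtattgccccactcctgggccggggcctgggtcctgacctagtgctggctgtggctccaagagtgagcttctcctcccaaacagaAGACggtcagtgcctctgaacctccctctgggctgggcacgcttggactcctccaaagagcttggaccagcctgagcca
IGFBP3: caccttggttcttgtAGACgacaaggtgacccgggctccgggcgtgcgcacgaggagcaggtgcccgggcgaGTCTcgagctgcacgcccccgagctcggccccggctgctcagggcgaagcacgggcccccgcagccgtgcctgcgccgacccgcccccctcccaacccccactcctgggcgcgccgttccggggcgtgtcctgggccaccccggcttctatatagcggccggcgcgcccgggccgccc

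Among ligands of the TGF-beta and activin branch, 3 of 10 tested were higher with TGF-beta 1 and 1 was lower. The shares over all genes were 13% and 11.2%. The cells' own TGFB1 transcript measured 16.4 and 15.5 CPM with SB431542, 108 and 82.6 with neither agent, and 97.9 and 86.8 with TGF-beta 1 (2.53 ± 0.18, adjusted p = 2.87e-08). TGF-beta 1 and no-agent libraries overlapped, and both stood above SB431542. NODAL had no counts in either SB431542 library, against 2.51 and 2.88 CPM with TGF-beta 1 and 1.41 and 1.44 CPM with neither agent, and was at least 30.7-fold higher with TGF-beta 1 (against 3 counts over the group). TGFB3 was low throughout (1.49 ± 0.39) and lost its call without high Wnt + SB4 replicate 1 (adjusted p = 0.0852). GDF11 was lower (-0.59 ± 0.13), and lost its call without high Wnt + TGFB replicate 2 (adjusted p = 0.0699). TGFB2 differed from TGFB1: it measured 40.5 and 34.2 CPM with SB431542, 83.4 and 75.9 with neither agent, and 29.9 and 26.3 with TGF-beta 1, highest where no agent was added. Its difference between the agents, -0.41 ± 0.16, did not pass (adjusted p = 0.0776). It passed as lower without the filter on low counts (adjusted p = 0.0297), with only the groups compared (adjusted p = 0.0264) and with the replicate block (adjusted p = 0.0194).

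Most receptors did not pass the test. The type I receptors TGFBR1 and ACVR1B and the type II receptor TGFBR2 had log2 fold changes of -0.31 ± 0.12, -0.32 ± 0.12 and 0.21 ± 0.14, and none passed. TGFBR1 passed as lower without the filter on low counts (adjusted p = 0.0286) and with only the groups compared (adjusted p = 0.0383), and ACVR1B without the filter (adjusted p = 0.0483) and with the replicate block (adjusted p = 0.0216). TGFBR1 measured 179 and 195 CPM with SB431542 and 142 and 161 CPM with TGF-beta 1. The receptors that passed, 3 of 9 tested, were all higher with TGF-beta 1. ACVR1C, the nodal type I receptor, measured 1.84 and 1.67 CPM with SB431542, 4.24 and 4.400 with neither agent, and 5.195 and 4.72 with TGF-beta 1 (1.49 ± 0.29). ACVR2A was higher by 0.57 ± 0.14 and lost its call without high Wnt + SB4 replicate 2 (adjusted p = 0.0704). ENG was higher by 2.10 ± 0.64 at levels of 0.318 and 0.167 CPM with SB431542 and 0.448 and 1.53 CPM with TGF-beta 1, and lost its call when any 1 of 3 libraries was left out (highest adjusted p = 0.547, without high Wnt + TGFB replicate 2). TDGF1, the nodal co-receptor, did not exceed 0.668 CPM in any of the 6 libraries.

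Of the 6 signal transducers, only SMAD3 passed. It measured 122 and 122 CPM with SB431542, 300.2 and 273 with neither agent, and 189.9 and 164 with TGF-beta 1, so that both agents lay below the cultures with neither and TGF-beta 1 lay above SB431542 (0.53 ± 0.11, adjusted p = 0.00154). SMAD2 and SMAD4 had log2 fold changes of 0.06 ± 0.09 and -0.02 ± 0.09. FOXH1, the DNA-binding partner of SMADs in nodal signaling, had one of 0.44 ± 0.21 and did not pass.

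Classical TGF-beta target genes were higher with TGF-beta 1 at 10 of 17 tested and lower at none, with a median of 0.97. IGFBP3, which binds insulin-like growth factors, measured 2.096 and 2.897 CPM with SB431542, 15.3 and 16.98 with neither agent, and 13.3 and 14.4 with TGF-beta 1 (2.46 ± 0.20). CCN2, a matrix-associated growth factor, measured 72.7 and 99.1 CPM with SB431542, 301 and 232 with neither agent, and 269 and 258 with TGF-beta 1 (1.61 ± 0.14). For both genes TGF-beta 1 did not pass against neither agent, and SB431542 was called lower than neither agent. PDGFB, a growth factor for pericytes, was at 1.27 and 2.56 CPM with SB431542, 28.8 and 22.7 with neither agent, and 17.2 and 14.5 with TGF-beta 1 (3.01 ± 0.32), highest with neither agent. Other called targets included TGM2, BHLHE40, KLF10, JUNB, NEDD9 and ADAM19, from 0.48 to 2.93. TGFBI behaved otherwise, at 254 and 197 CPM with SB431542, 437 and 369 with neither agent, and 183 and 197 with TGF-beta 1: the difference between the agents did not pass (-0.24 ± 0.13, adjusted p = 0.205) and both lay below neither agent. ADAM19 lost its call without high Wnt + SB4 replicate 1 (adjusted p = 0.0584). NEDD9 lost its call without high Wnt + SB4 replicate 1 (adjusted p = 0.0703) or high Wnt + TGFB replicate 2 (adjusted p = 0.0528).

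Genes of TGF-beta storage in the matrix were higher at 5 of 9 tested. THBS1, thrombospondin, which can activate latent TGF-beta, measured 12.4 and 23.95 CPM with SB431542, 164 and 198 with neither agent, and 102 and 144 with TGF-beta 1 (2.75 ± 0.43). LRRC32, a cell surface anchor for latent TGF-beta, measured 3.18 and 3.51 CPM with SB431542, 6.23 and 5.36 with neither agent, and 10.4 and 10.8 with TGF-beta 1 (1.66 ± 0.24). FBN2 (fibrillin) was higher by 0.94 ± 0.14, LTBP3 by 0.58 ± 0.20 and LTBP4 by 0.44 ± 0.10, the last without a call when high Wnt + TGFB replicate 1 was left out (adjusted p = 0.0525). Of 10 YAP and TEAD targets, 5 were higher and none lower. ANKRD1, a stretch-responsive nuclear protein, measured 6.86 and 6.63 CPM with SB431542, 44.2 and 27.3 with neither agent, and 72.2 and 48.8 with TGF-beta 1 (3.16 ± 0.25), CCN1 was higher by 1.14 ± 0.15, and AXL by 0.99 ± 0.10. F3 and CRIM1 were the others (0.60 and 0.54), and CRIM1 lost its call without high Wnt + SB4 replicate 1 (adjusted p = 0.053). F3 lost its call without any 1 of the 4 libraries (highest adjusted p = 0.164, without high Wnt + SB4 replicate 1). LTBP3 lost its call without high Wnt + SB4 replicate 1 (adjusted p = 0.13), high Wnt + SB4 replicate 2 (adjusted p = 0.172) or high Wnt + TGFB replicate 1 (adjusted p = 0.374).

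Extracellular matrix genes were higher with TGF-beta 1 at 20 of 27 tested and lower at 1, with a median log2 fold change of 0.81. The summed level of the list was 4345 to 4573 CPM with SB431542, 6422 to 6528 with neither agent and 7970.0 to 7982 with TGF-beta 1. COL1A1, a chain of type I collagen, measured 79.5 and 84.8 CPM with SB431542, 514 and 505 with neither agent, and 605 and 609 with TGF-beta 1 (2.88 ± 0.10). Its partner chain COL1A2 measured 288 and 261 CPM with SB431542, 547 and 563 with neither agent, and 1347 and 1218 with TGF-beta 1 (2.22 ± 0.10). The difference between TGF-beta 1 and neither agent was 0.25 for COL1A1 (adjusted p = 0.123), whereas COL1A2 stood apart in all 3 groups. HAPLN1, which links hyaluronan to proteoglycans, measured 15.2 and 15.8 CPM with SB431542, 16.1 and 14.8 with neither agent, and 138 and 144 with TGF-beta 1 (3.18 ± 0.14), so that TGF-beta 1 alone stood apart. BGN, a small proteoglycan, was at 46.8 and 45.7 CPM with SB431542, 164 and 148 with neither agent, and 219.7 and 211 with TGF-beta 1 (2.22 ± 0.10). LOX, which crosslinks collagen, was at 6.99 and 5.79 CPM with SB431542, 19.6 and 23.6 with neither agent, and 77.6 and 72.4 with TGF-beta 1 (3.55 ± 0.19).

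The exception in the matrix list was TNC. Tenascin C measured 197 and 209 CPM with SB431542, 115 and 110.0 with neither agent, and 47.9 and 48.1 with TGF-beta 1 (-2.08 ± 0.13, adjusted p = 1.01e-08), with the 3 groups in the opposite order. FN1 (fibronectin) had a log2 fold change of -0.33 ± 0.15 and did not pass, although it did, as lower, without the filter (adjusted p = 0.00996) and with only the groups compared (adjusted p = 0.0209). It passed, as lower, when no filter was used (adjusted p = 0.00996) and when only the groups compared were fitted (adjusted p = 0.0209). Integrins, the receptors for matrix, were higher at 6 of 14 tested and lower at 2. ITGA3, a laminin receptor chain, measured 1.21 and 1.17 CPM with SB431542, 4.82 and 5.64 with neither agent, and 12.5 and 11.1 with TGF-beta 1 (3.30 ± 0.24), and ITGA9, ITGB1 and ITGA5 were higher by 2.40 ± 0.37, 0.58 ± 0.09 and 0.50 ± 0.10. ITGB5 and ITGB8 were the ones lower (-0.48 and -0.61). ITGB5 lost its call without high Wnt + SB4 replicate 1 (adjusted p = 0.0766) or high Wnt + TGFB replicate 1 (adjusted p = 0.0538). ITGB8 lost its call without high Wnt + SB4 replicate 2 (adjusted p = 0.106) or high Wnt + TGFB replicate 1 (adjusted p = 0.0674).

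Contractile genes of smooth muscle were higher at 11 of 13 tested and lower at none, with a median of 1.58, and the list summed to 1299 to 1310.0 CPM with SB431542 and 3514 to 3535 with TGF-beta 1. TAGLN, an actin-binding protein of smooth muscle, measured 85.3 and 115 CPM with SB431542, 875 and 777 with neither agent, and 997 and 1080.4 with TGF-beta 1 (3.37 ± 0.18). ACTA2, smooth muscle actin, measured 55.3 and 56.6 CPM with SB431542, 228 and 189.6 with neither agent, and 313 and 304 with TGF-beta 1 (2.46 ± 0.12). MYL9, a myosin light chain, measured 68.7 and 66.9 CPM with SB431542, 232 and 202 with neither agent, and 282 and 288 with TGF-beta 1 (2.07 ± 0.13). LMOD1, which nucleates actin filaments, measured 1.27 and 1.89 CPM with SB431542, 9.305 and 7.98 with neither agent, and 20.96 and 20.98 with TGF-beta 1 (3.71 ± 0.24). In each the no-agent libraries lay nearer to TGF-beta 1 than to SB431542 on the log scale. MYOCD, the coactivator of the smooth muscle program, was low, at 0.762 and 0.167 CPM with SB431542 and 2.42 and 2.27 CPM with TGF-beta 1 (2.36 ± 0.52). MYH11, the heavy chain that defines mature smooth muscle, had no counts with SB431542 and did not exceed 0.123 CPM with TGF-beta 1.

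ACTC1, cardiac actin, measured 11.4 and 10.1 CPM with SB431542, 201 and 141 with neither agent, and 238 and 207 with TGF-beta 1 (4.37 ± 0.22), though actins are close in sequence and reads shared between them were not counted. JPH2, which joins the plasma membrane to the sarcoplasmic reticulum, measured 0.572 and 1.003 CPM with SB431542, 16.9 and 14.8 with neither agent, and 23.8 and 18.9 with TGF-beta 1 (4.72 ± 0.26). Pericyte genes were higher at 6 of 8 tested, led by CSPG4 (8.004 and 7.63 CPM with SB431542, 46.03 and 41.3 with neither agent, and 45.8 and 41.95 with TGF-beta 1, 2.49 ± 0.15), PDGFRB (1.86 ± 0.10), MCAM (1.35 ± 0.11) and ABCC9 (3.25 ± 0.49). RGS5, a pericyte marker, was higher by 0.82 ± 0.12, and NOTCH3 did not pass. VCAM1, an adhesion molecule, measured 0.699 and 0.891 CPM with SB431542, 5.23 and 5.57 with neither agent, and 13.8 and 15.1 with TGF-beta 1 (4.17 ± 0.20). PAPPA, a protease that releases insulin-like growth factors, measured 1.02 and 1.89 CPM with SB431542, 25.9 and 31.8 with neither agent, and 41.6 and 38.6 with TGF-beta 1 (4.75 ± 0.24). EDAR, the ectodysplasin receptor, measured 0.699 and 1.06 CPM with SB431542, 4.15 and 5.02 with neither agent, and 16.03 and 17.8 with TGF-beta 1 (4.25 ± 0.32).

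Genes of paraxial mesoderm were higher with TGF-beta 1 at 8 of 10 tested and lower at none, with a median of 1.94. Of these, TBX18 lost its call without any 1 of the 4 libraries, with log2 fold changes of 1.69 to 2.07 in those fits. FOXC1, a forkhead factor of somites, measured 24.6 and 21.7 CPM with SB431542, 49.02 and 43.2 with neither agent, and 121 and 99.7 with TGF-beta 1 (2.25 ± 0.15). MEOX1, a homeobox factor of somites, measured 60.5 and 48.1 CPM with SB431542, 75.4 and 71.8 with neither agent, and 232 and 210.2 with TGF-beta 1 (2.03 ± 0.17). The list summed to 119.7 to 148 CPM with SB431542, 188 to 220.3 with neither agent and 487 to 578 with TGF-beta 1. FOXC2, UNCX and TCF15 were higher by 2.46 ± 0.24, 2.15 ± 0.24 and 1.65 ± 0.20, and PAX9 by 4.86 ± 0.52. MYF5, which starts skeletal muscle formation, was at 0 in both TGF-beta 1 libraries. Somite cells make collagen and contractile genes as well, and the part of the somite genes in the matrix and contractile differences was not tested. In RNA from whole cultures, more cells of a type and more RNA per cell cannot be told apart.

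EYA1, a transcription cofactor used in somites and sensory placodes, was higher with TGF-beta 1. It measured 18.7 and 14.1 CPM with SB431542, 21.2 and 21.1 with neither agent, and 94.1 and 75.5 with TGF-beta 1 (2.37 ± 0.17). The TGF-beta 1 libraries stood far above both other groups. TBX1, a factor of head mesoderm and pharyngeal tissue, measured 0.762 and 0.780 CPM with SB431542, 5.57 and 3.85 with neither agent, and 15.4 and 10.5 with TGF-beta 1 (4.05 ± 0.40). TWIST1 was at 4.19 and 4.62 CPM with SB431542, 9.14 and 6.46 with neither agent, and 22.1 and 19.5 with TGF-beta 1 (2.23 ± 0.24). GATA4, a heart and lateral mesoderm factor, had 3 counts over both SB431542 libraries and 3.67 and 2.64 CPM with TGF-beta 1, a ratio of 34.3-fold (exact 95% interval 11.4 to 170.0). OSR1 and TNNT2 of the same list were higher as well (3.76 and 2.56), while TBX5 was at 0 in all 6 libraries. The whole list summed to 0.668 to 0.826 CPM with SB431542 and did not exceed 9.764 CPM with TGF-beta 1. The changes of OSR1 and TNNT2 therefore rest on few counts with SB431542. Receptors for VEGF were higher: KDR measured 0.762 and 0.780 CPM with SB431542, 2.49 and 2.06 with neither agent, and 8.42 and 7.73 with TGF-beta 1 (3.37 ± 0.23) and FLT1 15.7 and 14.4 CPM with SB431542, 55.99 and 56.5 with neither agent, and 65.3 and 62.2 with TGF-beta 1 (2.08 ± 0.18). KDR and FLT1 were the 2 genes called higher of 7 tested in the endothelium and blood list, and 4 did not pass. TEK of this list was called lower (-0.46), and lost that call in some fits with 1 library left out. EMCN of endothelium and GATA1 of blood were at 0 in all 6 libraries, and CDH5 did not exceed 0.550 CPM. Of 9 endoderm genes, CXCR4 and MIXL1 were higher (1.14 and 2.54). GATA6 had 1 count over the SB431542 libraries and was higher by 27.00-fold (exact 95% interval 4.36 to 1110.0), without a call when high Wnt + SB4 replicate 2 or high Wnt + TGFB replicate 2 was left out (adjusted p = 0.0917 and 0.0571). SOX17 was at 0 in both TGF-beta 1 libraries.

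DKK1, an inhibitor of Wnt receptors at chr10:52314281-52317657 (hg38, gene span), measured 2.99 and 2.45 CPM with SB431542, 19.02 and 18.5 with neither agent, and 79.3 and 70.8 with TGF-beta 1 (4.79 ± 0.19, adjusted p = 6.28e-11). RSPO3, which strengthens Wnt signaling, measured 1.78 and 0.947 CPM with SB431542, 5.57 and 6.46 with neither agent, and 23.02 and 18.6 with TGF-beta 1 (3.94 ± 0.32), and WIF1, which binds Wnt proteins, 1.52 and 1.17 CPM with SB431542, 3.24 and 1.65 with neither agent, and 10.03 and 6.26 with TGF-beta 1 (2.58 ± 0.38). All 3 groups stood apart at DKK1. Of 16 Wnt targets and modulators tested, 7 were higher and 2 lower, with a median of 0.27. Among the higher ones TNFRSF19, RNF43 and NOTUM lost their calls in some fits with 1 library left out. In those fits their lowest log2 fold changes were 0.288, 0.597 and 0.704. The direct targets LEF1 and NKD1 were higher (0.66 ± 0.10 and 0.94 ± 0.14), and AXIN2, the most general reporter of the pathway, did not pass (0.25 ± 0.14). SFRP2, which binds Wnt proteins, and LGR5, an R-spondin receptor, were lower (-1.07 ± 0.11 and -1.87 ± 0.35).

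Posterior HOX genes were among the largest changes. HOXD9 at chr2:176122685-176124917 measured 0.381 and 0.0557 CPM with SB431542, 13.6 and 13.5 with neither agent, and 48.8 and 59.3 with TGF-beta 1 (7.96 ± 0.37, adjusted p = 2.68e-10). HOXA10 at chr7:27170591-27180261 measured 0 and 0.279 CPM with SB431542, 17.9 and 20.97 with neither agent, and 24.3 and 26.3 with TGF-beta 1 (7.34 ± 0.45), and HOXC10 was higher by 3.09 ± 0.39. The SB431542 libraries held 7 counts of HOXD9 and 5 of HOXA10 in all, and the other 4 high Wnt libraries were far above them. HOX genes lie close together and share exons in some transcripts, and reads that overlap 2 genes were not counted. HOXA9, HOXA6 and HOXA5 were higher by 1.49 ± 0.29, 1.70 ± 0.34 and 1.42 ± 0.18, and HOXD8 and HOXD3 by 1.21 ± 0.20 and 1.12 ± 0.16. In the HOXB cluster no gene was called higher, and HOXB1, HOXB2, HOXB6 and HOXB7 were lower, from -0.51 to -1.13. HOXB9 did not pass (-0.43 ± 0.32), although it did without the filter (adjusted p = 0.000327) and with only the groups compared (adjusted p = 0.00148). HOXA2 was lower (-0.74 ± 0.20) and lost its call when any 1 of 3 libraries was left out (highest adjusted p = 0.205). HOXB2 lost its call without any 1 of the 4 libraries (highest adjusted p = 0.0934, without high Wnt + TGFB replicate 1). HOXB1 lost its call without high Wnt + SB4 replicate 2 (adjusted p = 0.364) or high Wnt + TGFB replicate 1 (adjusted p = 0.266). HOXB6 lost its call without high Wnt + TGFB replicate 1 (adjusted p = 0.0513).

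**Figure D3:**
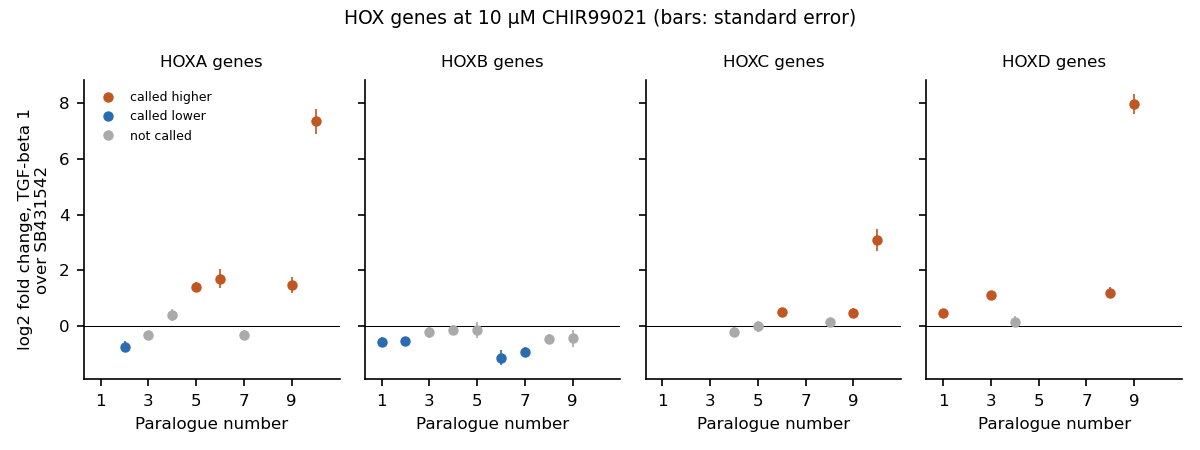
Log2 fold change of TGF-beta 1 over SB431542 at 10 µM CHIR99021 for HOX genes tested, by cluster, with paralogue number on the x axis and standard errors as bars. HOXA10 and HOXD9 lie at 7.34 and 7.96, HOXC10 at 3.09, and the called HOXB genes lie below 0.

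Axial progenitor genes were split, with 6 of 14 higher and 3 lower. TBX6, a factor of presomitic mesoderm, measured 6.16 and 6.13 CPM with SB431542, 25.3 and 17.5 with neither agent, and 19.6 and 16.6 with TGF-beta 1 (1.56 ± 0.20), and CYP26A1, which degrades retinoic acid, was higher by 1.46 ± 0.24. CDX1, CDX4, MSGN1 and WNT3A were the others higher (0.84, 1.02, 1.88 and 0.54). CDX2 measured 345 and 282 CPM with SB431542, 323 and 312 with neither agent, and 166 and 172 with TGF-beta 1 (-0.89 ± 0.16), NKX1-2 8.64 and 7.52 CPM with SB431542, 5.15 and 4.74 with neither agent, and 2.06 and 1.23 with TGF-beta 1 (-2.33 ± 0.34), and SP8 had a log2 fold change of -1.50 ± 0.16. TBXT, the brachyury factor of the primitive streak, did not pass (0.19 ± 0.16) and lay between 36.04 and 55.99 CPM in the 6 libraries. FGF17 was highest with neither agent, at 101 and 69.1 CPM. CDX4 lost its call without any 1 of the 4 libraries (highest adjusted p = 0.223, without high Wnt + SB4 replicate 2). MSGN1 lost its call without any 1 of the 4 libraries (highest adjusted p = 0.104, without high Wnt + TGFB replicate 2). WNT3A lost its call without high Wnt + SB4 replicate 1 (adjusted p = 0.12) or high Wnt + TGFB replicate 2 (adjusted p = 0.201).

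Central nervous system progenitor genes were lower with TGF-beta 1 at 7 of 11 tested and higher at none, with a median of -1.71, and the list summed to 607 to 682 CPM with SB431542, 354 to 407 with neither agent and 194 to 195 with TGF-beta 1. PAX6, a homeobox factor of the neural tube and eye, measured 70.00 and 87.6 CPM with SB431542, 5.98 and 6.67 with neither agent, and 6.18 and 6.13 with TGF-beta 1 (-3.68 ± 0.20, adjusted p = 1.78e-09). Only the SB431542 libraries stood apart. SOX2, which maintains neural progenitors, measured 493 and 405 CPM with SB431542, 349 and 291 with neither agent, and 158 and 154 with TGF-beta 1 (-1.53 ± 0.12), and SOX3 26.6 and 22.7 CPM with SB431542, 15.04 and 12.9 with neither agent, and 5.195 and 6.26 with TGF-beta 1 (-2.09 ± 0.19). IRX3, SOX1, NKX6-1 and OLIG3 were the others lower (-1.85, -1.75, -1.70 and -0.94). HES5, a Notch effector of neural progenitors, had 18 counts with SB431542 and none with TGF-beta 1, and did not pass (adjusted p = 0.114). OLIG3 lost its call without high Wnt + SB4 replicate 2 (adjusted p = 0.405), high Wnt + TGFB replicate 1 (adjusted p = 0.137) or high Wnt + TGFB replicate 2 (adjusted p = 0.18).

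Further along the neural line, ONECUT2, a factor of early neurons, measured 69.8 and 115 CPM with SB431542, 7.98 and 14.2 with neither agent, and 2.33 and 2.02 with TGF-beta 1 (-5.42 ± 0.35, adjusted p = 1.01e-08). NEUROG2, a proneural factor, measured 42.7 and 57.8 CPM with SB431542, 11.96 and 15.5 with neither agent, and 3.05 and 4.78 with TGF-beta 1 (-3.65 ± 0.29). HES3 was at 14.7 and 11.1 CPM with SB431542, 2.33 and 2.13 with neither agent, and 0.179 and 0.368 with TGF-beta 1 (-5.43 ± 0.36), and SOX21, which promotes neurogenesis, at 55.3 and 63.5 CPM with SB431542, 20.1 and 25.2 with neither agent, and 4.12 and 5.397 with TGF-beta 1 (-3.62 ± 0.26). In all 4 the order ran from SB431542 through neither agent to TGF-beta 1. Of 8 genes of early neurons, 7 were lower with TGF-beta 1, with a median of -1.64. MAP2, a microtubule protein of dendrites, measured 80.2 and 86.8 CPM with SB431542, 33.8 and 37.3 with neither agent, and 16.03 and 15.2 with TGF-beta 1 (-2.42 ± 0.13), and ELAVL4 18.4 and 18.1 CPM with SB431542, 9.64 and 10.1 with neither agent, and 4.84 and 4.17 with TGF-beta 1 (-2.02 ± 0.20). PRPH and NHLH1 were lower (-1.26 and -3.03), as were STMN2, TUBB3 and ELAVL3. PRPH and STMN2 were highest with neither agent. DCX did not pass (0.96 ± 0.45). ELAVL3 lost its call without high Wnt + SB4 replicate 1 (adjusted p = 0.0992).

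Other genes with the largest decreases were PCDH8, a protocadherin, at 110.0 and 120.4 CPM with SB431542, 7.48 and 8.53 with neither agent, and 8.87 and 10.9 with TGF-beta 1 (-3.53 ± 0.16), and GDF10, a BMP-like ligand, at 104 and 96.8 CPM with SB431542, 10.3 and 12.99 with neither agent, and 7.79 and 9.32 with TGF-beta 1 (-3.54 ± 0.20). TGF-beta 1 did not pass against neither agent at either gene. MARCH4, a ubiquitin ligase, TESC, LPL (lipoprotein lipase), KLHDC8A and CA4 (a carbonic anhydrase) had log2 fold changes of -4.30, -3.42, -3.19, -3.14 and -3.10. Among noncoding genes, a pair of host transcripts of the neuronal microRNA miR-124 was lower. LINC00599, which RefSeq lists as MIR124-1HG, measured 10.7 and 10.6 CPM with SB431542, 6.15 and 4.400 with neither agent, and 0.896 and 0.920 with TGF-beta 1 (-3.54 ± 0.30), and MIR124-2HG 16.3 and 22.2 CPM with SB431542, 7.39 and 8.18 with neither agent, and 1.97 and 2.58 with TGF-beta 1 (-3.05 ± 0.23). MIR217HG had 2 counts with TGF-beta 1 and 2.096 and 2.12 CPM with SB431542, lower by 28.9-fold (exact 95% interval 7.72 to 244). LOC387810 and LINC00152 each had 2 counts with SB431542 and were higher by 27.00-fold (exact 95% interval 7.04 to 230.0) and 19.6-fold (exact 95% interval 5.01 to 169). MIR4435-2HG was higher by 3.80 ± 0.59. The mature microRNAs were not measured.

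Neural crest specifiers were called higher at 2 and lower at 5 of 18 tested, with a median of -0.33. Over all genes tested, 13% were called higher and 11.2% lower. ETS1, a factor of cranial crest and also of endothelium, measured 5.27 and 5.46 CPM with SB431542, 56.99 and 55.00 with neither agent, and 63.5 and 61.3 with TGF-beta 1 (3.54 ± 0.14). ZIC1, a neural plate border factor, measured 141 and 139.7 CPM with SB431542, 100.4 and 82.98 with neither agent, and 51.4 and 57.3 with TGF-beta 1 (-1.36 ± 0.17). NGFR, a surface marker of crest, measured 17.02 and 16.9 CPM with SB431542, 18.2 and 19.3 with neither agent, and 10.9 and 11.3 with TGF-beta 1 (-0.61 ± 0.14). SOX9 had a log2 fold change of -0.62 ± 0.21 (adjusted p = 0.0377), and SOX5 and ERBB3 were lower with -0.57 and -0.37. SOX9 lost its call when any 1 of 3 libraries was left out (highest adjusted p = 0.288), as did FOXD3 (2.29 ± 0.77, highest adjusted p = 0.391). SOX5 lost its call without high Wnt + SB4 replicate 2 or high Wnt + TGFB replicate 2 (adjusted p = 0.142 and 0.229). PAX3 measured 237 and 238 CPM with SB431542, 177 and 169 with neither agent, and 259 and 248 with TGF-beta 1 and did not pass (0.09 ± 0.11). SOX10 did not pass (-0.68 ± 0.45), and TFAP2A had 5 counts with SB431542 and 2 with TGF-beta 1. ERBB3 lost its call without any 1 of the 4 libraries (highest adjusted p = 0.309, without high Wnt + TGFB replicate 2).

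Genes of crest derivatives gave no common direction. Of sensory neuron genes, EYA1 and EYA2 were among those higher, and NEUROG2, NTRK3 and NEUROD4 among those lower. NEUROD4 had 28 counts with SB431542 and 1 with TGF-beta 1, and POU4F1, the defining sensory factor, did not exceed 0.334 CPM. In the autonomic list RET and INSM1 were lower and GATA2 and GATA3 higher, the last 3 with 2 or 3 counts in 1 arm. INSM1 lost its call without high Wnt + TGFB replicate 1 or 2 (adjusted p = 0.0605 and 0.071). KIT of the melanocyte list was lower (-0.81 ± 0.11), EDNRB was higher (0.97 ± 0.25) and lost its call without high Wnt + SB4 replicate 2 or high Wnt + TGFB replicate 2 (adjusted p = 0.14 and 0.161), and MLANA did not exceed 0.0896 CPM. FABP7, a glial and neural progenitor gene, measured 74.1 and 71.02 CPM with SB431542, 42.1 and 38.98 with neither agent, and 16.1 and 22.1 with TGF-beta 1 (-1.91 ± 0.15), and MBP was higher (1.44 ± 0.27). Of cartilage and ectomesenchyme genes COL2A1, the cartilage collagen, was higher (446 and 446 CPM with SB431542, 542 and 553 with neither agent, and 1045 and 1001 with TGF-beta 1, 1.20 ± 0.10) and BARX1 lower (-2.18 ± 0.43), and DLX5 was at 0 in all 6 libraries. PMEL and ACAN were called lower as well (-0.28 and -1.20). PMEL lost its call without any 1 of the 4 libraries (highest adjusted p = 0.227, without high Wnt + SB4 replicate 1), with RLE scaling (adjusted p = 0.0609) and without the filter (adjusted p = 0.0525). ACAN lost its call without high Wnt + SB4 replicate 1 (adjusted p = 0.111), without high Wnt + TGFB replicate 1 (adjusted p = 0.112) and in DESeq2 (adjusted p = 0.0518). GATA3 lost its call without high Wnt + SB4 replicate 1 (adjusted p = 0.166) or high Wnt + TGFB replicate 2 (adjusted p = 0.415). NEUROD4 lost its call without high Wnt + SB4 replicate 2 (adjusted p = 0.078), high Wnt + TGFB replicate 1 (adjusted p = 0.105) or high Wnt + TGFB replicate 2 (adjusted p = 0.076). NTRK3 lost its call without high Wnt + SB4 replicate 2 (adjusted p = 0.0811) or high Wnt + TGFB replicate 2 (adjusted p = 0.106).

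Epithelial genes moved in 1 direction and mesenchymal genes were divided. Epithelial genes were higher with TGF-beta 1 at 10 of 14 tested and lower at none, with a median of 1.48. Of these, CLDN3, EPCAM, ESRP1, ESRP2 and KRT19 lost their calls in some fits with 1 library left out. In those fits their lowest log2 fold changes were 1.82, 0.711, 1.31, 1.32 and 0.785. ESRP1 and ESRP2 had 13 and 4 counts over the SB431542 libraries. KRT18 and KRT8, keratins of simple epithelium, were higher by 1.48 ± 0.14 and 1.63 ± 0.16, from 102 and 94.9 CPM with SB431542 and 289 and 263 CPM with TGF-beta 1 for KRT18. CLDN6 and CLDN7, tight junction claudins, were higher by 1.34 ± 0.14 and 1.70 ± 0.25, and CDH1 (E-cadherin) did not exceed 0.627 CPM and did not pass. Mesenchymal genes were higher at 4 and lower at 4 of 11. SNAI1 and SNAI2, related repressors of epithelial genes, differed in direction: SNAI1 measured 6.16 and 5.46 CPM with SB431542, 26.4 and 16.02 with neither agent, and 23.3 and 18.7 with TGF-beta 1 (1.85 ± 0.28), and SNAI2 72.3 and 60.9 CPM with SB431542, 46.4 and 37.1 with neither agent, and 30.01 and 21.3 with TGF-beta 1 (-1.39 ± 0.17). PDGFRA was higher (1.13 ± 0.10), VIM was higher (0.72 ± 0.11), CDH2 (N-cadherin) did not pass (-0.01 ± 0.09), and CDH6, ZEB1 and CDH11 were lower (-0.69, -0.35 and -0.29). CDH11 lost its call without any 1 of the 4 libraries (highest adjusted p = 0.183, without high Wnt + TGFB replicate 2). ZEB1 lost its call without any 1 of the 4 libraries (highest adjusted p = 0.284, without high Wnt + SB4 replicate 2). CDH6 lost its call without high Wnt + TGFB replicate 1 (adjusted p = 0.0651).

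In other pathways the members were divided, where 13% of all genes tested were called higher and 11.2% lower. Of BMP genes 3 were higher and 3 lower of 15, with FSTL1 at 1.18 ± 0.08, GREM1 at 1.13 ± 0.19, BMP7 at 0.53 ± 0.10 and ID4 at -0.74 ± 0.15, and the BMP reporter ID1 did not pass (-0.03 ± 0.27). BMP4 and CHRD were the others lower (-0.48 and -0.69). BMP4 lost its call in every fit with 1 of the compared libraries left out, and CHRD in most of them. Of 14 FGF and ERK response genes, DUSP5 was higher (0.90) and ETV5, SPRY2 and DUSP4 were lower (-0.50, -0.50 and -0.66). SPRY2 and DUSP4 lost their calls without high Wnt + SB4 replicate 2 (adjusted p = 0.125 and 0.381) or high Wnt + TGFB replicate 1 (adjusted p = 0.166 and 0.323). Of Notch genes 5 were higher and 2 lower of 14, the higher ones led by HEY2, a Notch effector (10.7 and 10.5 CPM with SB431542, 26.4 and 22.5 with neither agent, and 51.8 and 45.9 with TGF-beta 1, 2.201 ± 0.161), and DLL3, a Notch ligand (1.40 ± 0.16). LFNG, which modifies Notch, was lower (-0.88 ± 0.11). The ligand DLL1 was called lower as well, but its libraries overlapped, at 30.1 and 4.73 CPM with SB431542 and 5.73 and 3.19 CPM with TGF-beta 1, and without high Wnt + SB4 replicate 1 its log2 fold change was -0.10 (adjusted p = 0.927). Retinoic acid genes were higher at 7 and lower at 2 of 15. ALDH1A2, which makes retinoic acid in somites, measured 2.29 and 2.73 CPM with SB431542, 3.16 and 2.68 with neither agent, and 15.7 and 13.3 with TGF-beta 1 (2.52 ± 0.25), DHRS3 was at 1.93 ± 0.19, and CRABP1 and RARB were lower (-1.12 and -0.97).

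Cell cycle genes were lower with TGF-beta 1 at 5 of 14 and higher at none, with a median of -0.28. MCM5, MCM2, PCNA and CDC6, which serve DNA replication, had log2 fold changes of -1.03 ± 0.12, -0.89 ± 0.11, -0.81 ± 0.12 and -0.77 ± 0.16, and CCNB1 of -0.43 ± 0.09. MCM2 measured 405 and 396 CPM with SB431542, 218 and 218 with neither agent, and 205 and 227 with TGF-beta 1, and only SB431542 stood apart. The general proliferation marker MKI67 did not pass (-0.28 ± 0.18). Of 12 p53 response genes 3 were higher (PMAIP1 1.57, ZMAT3 0.81, TP53INP1 0.60), and CDKN1A, an inhibitor of the cell cycle, did not pass (0.53 ± 0.21) and was highest with neither agent. BAX did not pass (0.31 ± 0.11, adjusted p = 0.0505). It passed as higher in DESeq2 (adjusted p = 0.0405), with RLE scaling (adjusted p = 0.0452) and with library totals alone (adjusted p = 0.0394). It also passed with only the groups compared (adjusted p = 0.0257) and with the replicate block (adjusted p = 0.0453). Pluripotency genes were higher at 1 and lower at 2 of 14: ZFP42 at 0.87, DNMT3B at -0.62 and LIN28A at -0.82. L1TD1 did not pass in the main fit. It passed as lower in DESeq2 (adjusted p = 0.0279) and without the filter (adjusted p = 0.00122). The same held with only the groups compared (adjusted p = 0.023) and with the replicate block (adjusted p = 0.0289). POU5F1 and NANOG did not exceed 0.191 CPM in any of the 6 libraries. CCNB1 lost its call without high Wnt + TGFB replicate 1 (adjusted p = 0.0729).

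**Figure D4:**
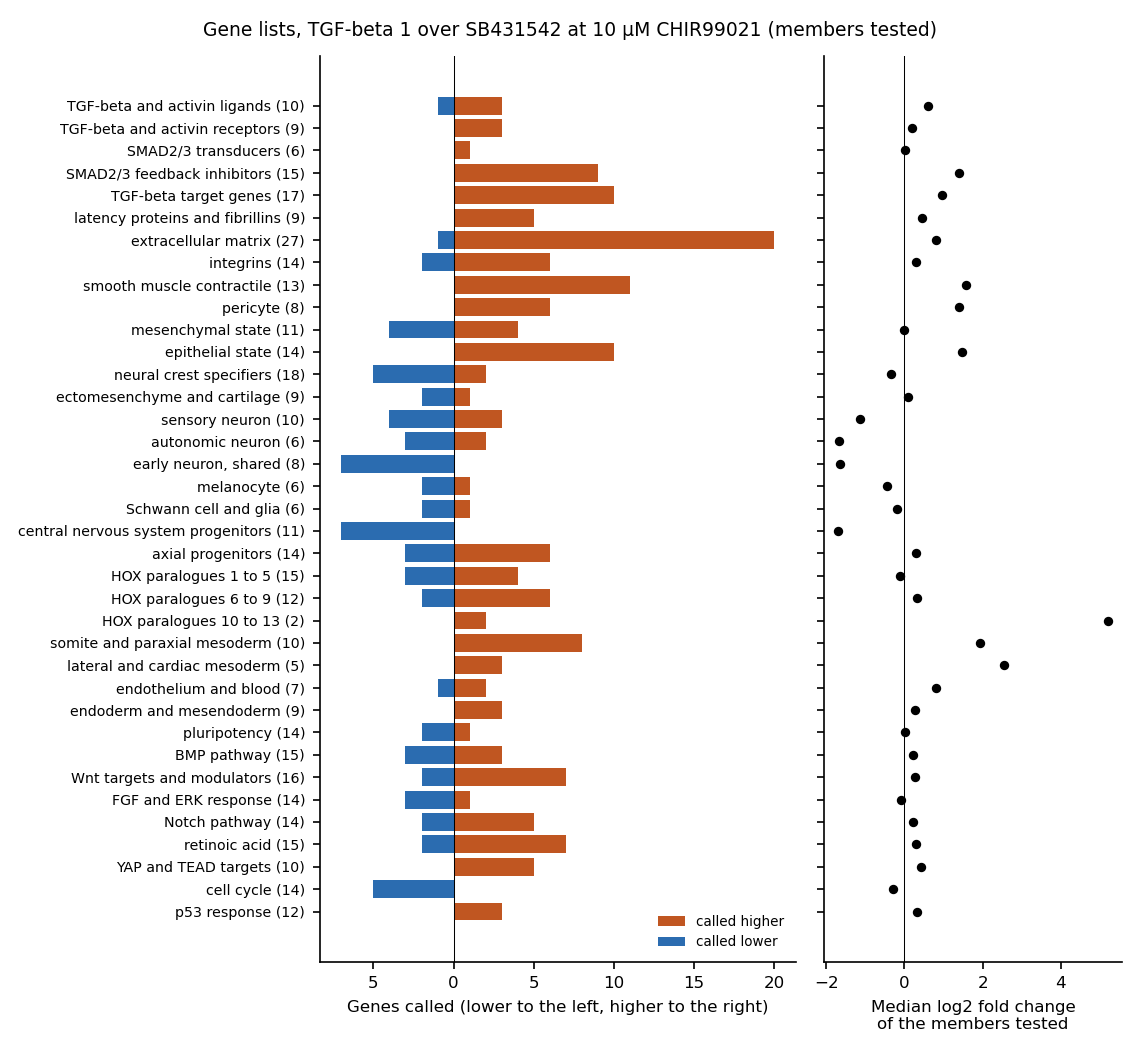
For 37 gene lists, bars on the left give the number of members called higher (orange, right) and lower (blue, left) with TGF-beta 1 than with SB431542 at 10 µM CHIR99021, with the number tested in parentheses, and points on the right give the median log2 fold change of the members tested. Extracellular matrix has 20 of 27 higher and contractile genes 11 of 13, whereas early neuron genes have 7 of 8 lower.

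The cultures with neither agent were compared with each agent as well. TGF-beta 1 against neither agent gave 1170 called genes (7.25% of those tested), 606 higher (3.75%) and 564 lower (3.49%). SB431542 against neither gave 3476 (21.5%), 1605 higher (9.94%) and 1871 lower (11.6%). Both counts fell whichever 1 of their libraries was left out, in fits that had only 1 library in an arm. With libraries scaled by their totals alone, 66.2% of the genes called for TGF-beta 1 were higher instead of 51.8%, and 57% for SB431542 instead of 46.2%. The 2 comparisons share the no-agent libraries and each shares libraries with the comparison of the agents, so their values are only set side by side. Among TGF-beta target genes TGF-beta 1 was higher than neither agent at 1 of 17 and SB431542 was lower at 12. Among contractile genes the counts were 2 and 10 of 13, in matrix genes 11 and 18 of 27, and in somite genes 7 and 6 of 10.

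Single genes fell into several orders. HAPLN1 had log2 fold changes of 3.19 with TGF-beta 1 and 0.01 with SB431542, both against neither agent, and ALDH1A2 had 2.31 and -0.21. PAX6 showed the reverse, -0.04 with TGF-beta 1 and 3.63 with SB431542, as did TGFB1 with -0.04 and -2.58. LEFTY2 was called on both sides, at 2.75 and -7.09, and so was ONECUT2, at -2.37 and 3.05. TGFB2, TGFBI and SMAD3 were called lower with either agent, with log2 fold changes for TGFB2 of -1.51 and -1.09, for TGFBI of -1.09 and -0.84, and for SMAD3 of -0.70 and -1.23. PAX3, MEOX2 and RIPPLY1 were called higher with either agent, PAX3 by 0.55 and 0.46, MEOX2 by 3.20 and 2.96, and RIPPLY1 by 2.40 and 0.99. HAPLN1, ALDH1A2, MEOX2 and RIPPLY1 were chosen as examples after their values were seen.

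At 3 µM CHIR99021 the same 2 agents were compared in other libraries. There 5729 genes were called (35.5% of those tested), 2968 higher (18.4%) and 2761 lower (17.1%) with TGF-beta 1. Of genes higher at 10 µM, 834 were also higher at 3 µM, which is 39.7% of the 10 µM list and 28.1% of the 3 µM list. Of genes lower, 689 were shared (38% and 25%). In opposite directions were 286 genes higher at 10 µM and lower at 3 µM (13.6% and 10.4%), and 226 lower at 10 µM and higher at 3 µM (12.5% and 7.61%). The difference between the doses itself was called at 3630 genes (22.5%), with 1784 more positive at 10 µM (11%) and 1846 more negative (11.4%), including all of the 286 and 226 genes.

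Several genes were called in the same direction at both doses. DKK1 had log2 fold changes of 4.79 ± 0.19 at 10 µM and 4.89 ± 0.24 at 3 µM, PMEPA1 5.65 ± 0.39 and 6.09 ± 0.38, and SMAD7 1.61 ± 0.28 and 1.91 ± 0.30, and the difference between doses did not pass for any of the 3. LEFTY2 was higher by 9.84 ± 0.26 and 1.27 ± 0.34, a difference of 8.57 (adjusted p = 1.09e-08 in edgeR). SKIL had the larger change at 3 µM, 3.19 ± 0.22 (difference -1.80, adjusted p = 0.000166). PAX6 and KLHDC8A were lower at both doses, with -3.15 and -3.15 at 3 µM and no called difference.

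Contractile and pericyte genes differed between the doses. ACTA2 was higher with TGF-beta 1 by 2.46 ± 0.12 at 10 µM and had -1.10 ± 0.13 at 3 µM, and TAGLN had 3.37 ± 0.18 and -0.27 ± 0.17. Of 13 contractile genes 8 had a called difference, all more positive at 10 µM. VCAM1 was opposite at the doses, 4.17 ± 0.20 and -6.25 ± 0.19, with a mean of 66.8 CPM for SB431542 at 3 µM. IGF2 had 1.90 ± 0.22 at 10 µM and -5.15 ± 0.33 at 3 µM. HOXA10 and HOXD9 were near 0 CPM in all 4 low Wnt libraries (means up to 0.130 CPM). The difference was called for HOXA10 (adjusted p = 0.0188) and did not pass for HOXD9 (adjusted p = 0.101). Among early neuron genes MAP2 had -2.42 ± 0.13 and 0.02 ± 0.11, whereas ELAVL4 was lower at both doses (-1.86 at 3 µM).

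Stem cell, endoderm and epithelial genes moved in the low Wnt libraries. At 3 µM 13 of 14 pluripotency genes were higher with TGF-beta 1 and 1 was lower, with a median of 3.01, against 0.03 at 10 µM, and TDGF1 had means of 0.344 CPM with SB431542 and 219 CPM with TGF-beta 1. Endoderm genes were higher at 8 of 9, with SOX17 at 0 and 23.5 CPM. Epithelial genes were higher at 13 of 14, with CDH1 at 0.388 and 126 CPM. At 10 µM TDGF1, SOX17 and CDH1 were at or under 0.668 CPM in all 4 libraries. These genes move with the comparison between doses, and their part in it was not tested.

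**Figure D5:**
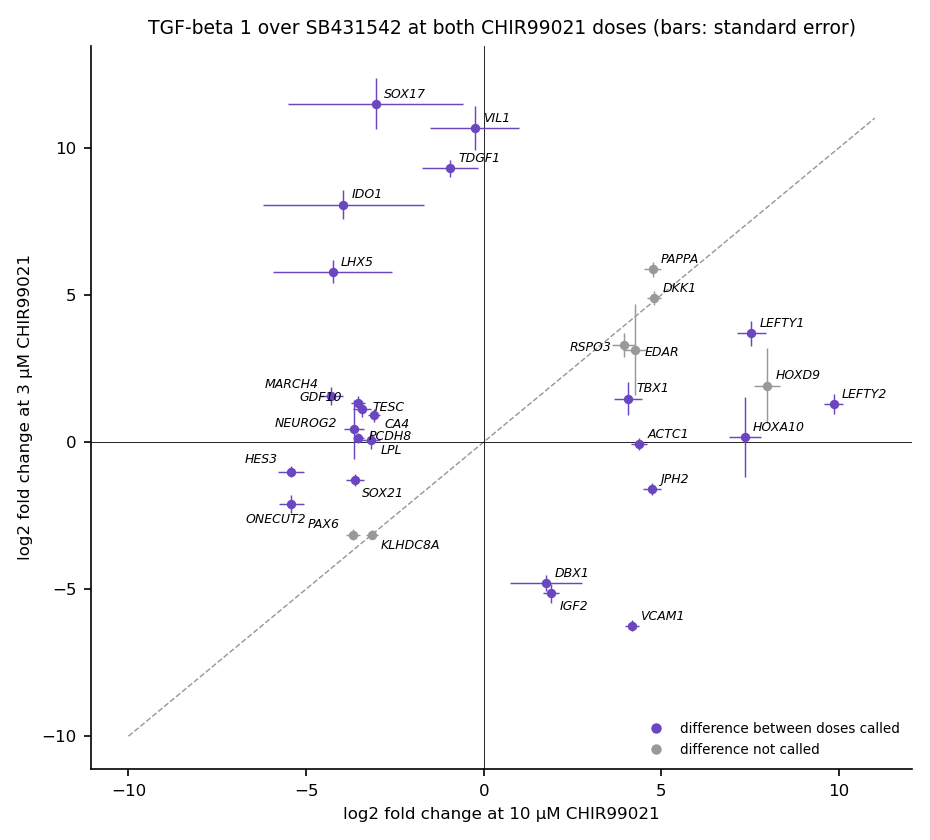
Log2 fold change of TGF-beta 1 over SB431542 at 10 µM CHIR99021 (x axis) and at 3 µM (y axis) for the named genes with the largest changes or the largest differences between doses, with standard errors as bars, and a dashed line where both are equal. DKK1, PAX6 and KLHDC8A lie near the line, VCAM1 lies at 4.17 and -6.25, and SOX17, IDO1, LHX5, VIL1 and TDGF1, which have few counts at 10 µM, lie high at 3 µM only.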

How the data were processed

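RNA was sequenced from 14 libraries in 7 groups of 2. The authors deposited whole-number read counts per gene. Per the file headers, featureCounts 2.0.0 counted read pairs over exons by gene with the reverse-strand setting on UCSC hg38 genes, and neither multiply mapped reads nor reads over more than 1 gene were counted. bcl2fastq, HISAT2 2.2.0 and SAMtools 1.10 are named per the submitters' processing notes.

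From these counts, genes were filtered with filterByExpr, scaled by TMM and fitted with the quasi-likelihood test of edgeR 4.0.16 (R 4.3.3) over all 14 libraries, with 7 residual degrees of freedom. Of 26485 genes, 16149 were tested, and 4943 had no counts. The biological coefficient of variation was 0.101. Calls needed an adjusted p (Benjamini-Hochberg) under 0.05. The standard error (SE) is the log2 fold change divided by the square root of F. Values after ± are SE. The fit was tested on simulated data.

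Named genes were the 12 most changed called genes in each direction with a mean of at least 10 CPM in 1 group, 3 noncoding genes in each direction at 1 CPM or more, the 4 genes of smallest p in each of 37 lists, a panel of 36 genes, and the 5 largest differences between doses in each direction. Others named are list members. A few such genes are left out of the text. Members and lists were chosen with earlier results of these data known. Intervals are exact at 95% and cover counting error only. Alternatives used DESeq2 1.42.0, other scaling, no filter, only the groups compared, a replicate block, a fold minimum and each library left out.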

Additional observations from a re-analysis of the deposited data

Results flagged for a closer look

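The effect of TGF-beta 1 over SB431542 was compared between 10 µM and 3 µM CHIR99021, and 113 of 198 named genes had a called difference in edgeR, against 22.5% of all genes tested. The named genes were chosen in part for large changes and for large differences between doses, so their share is no result. Those called in opposite directions at the doses, or chosen for the size of the difference, are given here as the log2 fold change at 10 µM minus that at 3 µM.

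Higher with TGF-beta 1 at 10 µM and lower at 3 µM were 18 of the named genes reported. Muscle and pericyte genes among them were JPH2 (6.32), ABCC9 (5.45), TNNT2 (3.62), ACTA2 (3.56) and MCAM (1.95). TNNT2 had few counts with SB431542 at 10 µM, where its whole list summed to 0.668 to 0.826 CPM. The call of ABCC9 at 3 µM was marginal (adjusted p = 0.0497 in edgeR). There it measured 0.670 and 0.576 CPM with SB431542 and 0.142 and 0.117 CPM with TGF-beta 1, the latter under 3 counts in each library. Matrix and adhesion genes were VCAM1 (10.42), COL1A2 (3.08), COL2A1 (2.75), CCN2 (2.18) and CCN1 (1.82). Signaling genes were IGF2 (7.05), DLL3 (2.65), HEYL (1.82), DUSP5 (1.48), BMP7 (1.39) and SMAD3 (1.18). A transcription cofactor and a homeobox factor were EYA1 (3.26) and MEIS2 (2.26).

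Lower at 10 µM and higher at 3 µM were 15 of them. FGF and ERK response genes among them were SPRY2 (-2.84), DUSP4 (-2.50) and ETV5 (-2.45). Stem cell and axial genes were NKX1-2 (-6.40), DNMT3B (-2.73) and LIN28A (-1.70). Neuronal genes were LINC00599 (-5.55), PRPH (-3.58) and RET (-2.58). The rest were MARCH4 (-5.86), GDF10 (-4.85), TESC (-4.54), CA4 (-4.01), ID4 (-1.85) and TEK (-0.86). TEK lost its call at 10 µM without high Wnt + SB4 replicate 1, high Wnt + SB4 replicate 2 or high Wnt + TGFB replicate 1 (adjusted p = 0.0643, 0.0647 and 0.185).

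LEFTY2 (8.57) and HOXA10 (7.17) had larger values at 10 µM without opposite calls. HOXA10 had 5 counts with SB431542 at 10 µM. At 3 µM its means were 0.0567 CPM with SB431542 and 0.0711 CPM with TGF-beta 1. DBX1 (6.56) had 2 counts with SB431542 and 6 with TGF-beta 1 at 10 µM and did not pass there, and it was lower at 3 µM (-4.80). SOX17 (-14.53), VIL1 (-10.93), TDGF1 (-10.27), LHX5 (-10.03) and IDO1 (-12.01) had few counts in the 4 libraries at 10 µM as well. The size of these fitted differences, DBX1 and HOXA10 included, depends on the fit and is no bound.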

How the results depend on the processing

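The count of 3910 genes called between TGF-beta 1 and SB431542 was between 3538 and 4340 with DESeq2, RLE scaling, library totals alone, no filter on low counts or only the groups compared. With a log2 fold change of at least 1 required, the counts were 1451 (68.4% higher, against 53.7%), 428 for TGF-beta 1 against neither agent, 962 for SB431542 against neither, 2625 at 3 µM CHIR99021 and 2019 for the difference between doses. That requirement can only lower a count. Leaving out 1 library gave 2477 to 2686, 538 to 714, 1944 to 2422, 4048 to 4805 and 2769 to 3301 in the same order, each fit with 1 sample in an arm assumed to vary like the other groups. Of the genes called with all libraries, 2412 to 2554 stayed called between the agents. No named gene changed sign in a call under these alternatives. Leaving out a library ended the call of 10 to 12 of the 198 named genes each time, and the cause was not tested.

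The replicate block gave 4284 called genes, which included 3898 of the 3910, and 1418, 3879, 6112 and 3995 in the other comparisons, and ended no named gene's call. The main fit took same-numbered libraries to share only a number, because not every pair of groups in the study correlated above 0.1. Deviations from the group means correlated at 0.111 between the high Wnt groups with SB431542 and TGF-beta 1. They correlated at 0.206 and 0.119 between each of these and neither agent. All pairs of high Wnt groups were thus above 0.1, and the block raised the count in every comparison. The other pairs of groups ranged from -0.116 to 0.135. Whether same-numbered libraries share an effect was not tested. Depth limits genes under about 3 counts in a library, and 2 libraries in a group limit all tests.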
